A study of Mus musculus with 4 samples.

Results

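miR-96, miR-182 and miR-183 are the mature miRNAs of one gene cluster, and they were taken by name from the mature rows mmu-miR-96, mmu-miR-182 and mmu-miR-183 of the deposited spot table, 3 of the 710 mouse miRNAs on the chip. The passenger strands were not counted among them. Shikonin, a red naphthoquinone from the roots of Lithospermum erythrorhizon, was dissolved in acetone at 10 μg/μl, and 100 μl was pipetted onto abdominal skin, while the other skin received 100 μl of acetone alone. Female C57BL/6JNarl mice of 6 to 8 weeks were used, and the treated skin was taken after 24 hr and homogenized frozen for RNA. There were 4 arrays, 2 of shikonin-treated and 2 of acetone-treated skin. Arrays of 1 treatment are described in the study as biological sample replicates, while neither the labels nor the methods name separate animals. Each p-value covers the spread between these 4 samples alone.

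The primary transcript of this cluster is cut into the 3 miRNAs, which are abundant in sensory cells of the inner ear and the retina and are also found in many epithelia. Each miRNA guides the Argonaute complex to mRNAs that pair with its seed, bases 2 to 8 from the 5′ end. Mutations in the seed of miR-96 cause progressive hearing loss in mice and people, miR-182 is a known repressor of FoxO transcription factors, and miR-183 is known in human cells to repress the cytoskeletal linker ezrin. In skin the cluster is known from the epidermis and the hair follicle.

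The mature sequences are shown because they set both what each miRNA can pair with and what each probe, a reverse complement, can capture. They were taken from RefSeq (assembly GRCm38.p6), in which all 3 lie on chromosome 6, on the minus strand, inside the long noncoding RNA gene Mirc35hg in the transcribed order Mir183, Mir96, Mir182, with no other gene of that table between them. Capitals mark the seed.
miR-96: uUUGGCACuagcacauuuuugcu
miR-182: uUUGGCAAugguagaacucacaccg
miR-183: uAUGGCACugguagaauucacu

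The seed was UUGGCAC in miR-96, UUGGCAA in miR-182 and AUGGCAC in miR-183, so each miRNA stood in a seed group of its own. All 3 share UGGCA at bases 3 to 7, a run that stood at those bases in 5 of 1679 mature mouse miRNAs (0.298%), of which miR-96, miR-182 and miR-183 are those on this chip. The seed of miR-96 is shared with miR-1271-5p, which the chip did not carry. Laid side by side from the 5′ end, miR-182 and miR-183 were identical at 18 of 22 bases, against 13 of 22 for miR-96 and miR-183 and 12 of 23 for miR-96 and miR-182. Whether the probes of miR-182 and miR-183 capture each other's miRNA was not tested. The GC content was 39.1% in miR-96, 48.0% in miR-182 and 40.9% in miR-183. The probes followed an older miRBase release, which may differ from these sequences at single bases.

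On this chip the captured miRNA primes an enzymatic extension with biotinylated nucleotides, and the brightness of the spot is its intensity in the scanner's arbitrary units. Each miRNA had 8 spots per array, some of them empty. The median spot of a whole array was 376 and 488 on the shikonin arrays and 352 and 416 on the acetone arrays. The background level of an array was the median of 32 miRNAs of other tissues (brain, liver, pancreas, embryonic stem cells, testis). It lay at 332 and 424 on the shikonin arrays and at 314 and 366 on the acetone arrays. Detection above background required a median spot more than 3 scaled median absolute deviations (MAD) over this level. Each MAD here was scaled to equal the SD of normally distributed values, so it is larger than the unscaled one. On the shikonin arrays 196 and 216 miRNAs reached this threshold, and on the acetone arrays 249 and 245 did. Only 1 of the 32 background miRNAs itself did so on any array.

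miR-182 was well above background in acetone-treated skin. The median raw spot of miR-182 was 692 and 452 on the shikonin arrays and 784 and 1156 on the acetone arrays. It stood 360 and 28 units over the background level with shikonin, against 470 and 790 units with acetone. Shikonin replicate 1 thus kept a clear signal, while on shikonin replicate 2 miR-182 was not above background, with 0 of its 6 filled spots over the threshold of 549. Its spots ranged from 480 to 856 and from 376 to 544 on the shikonin arrays and from 672 to 968 and from 896 to 1584 on the acetone arrays. The spots of shikonin replicate 2 did not overlap with those of either acetone array. Of its 8 spots, 2 were empty on every array and 1 more on acetone replicate 1, so that its median rests on 5 or 6 spots.

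miR-183 was dimmer. Its median raw spot was 416 on both shikonin arrays, against 456 and 548 on the acetone arrays. It stood 84 and -8 units over the background level with shikonin, against 142 units or more with acetone. Counted in MAD it stood at 2.02 and -0.193 with shikonin and at 6.84 and 5.58 with acetone. It was therefore above background on both acetone arrays and on neither shikonin array. The MAD was 41.5 on both shikonin arrays, against 20.8 and 32.6 on the acetone arrays. The threshold of shikonin replicate 1, at 457, lay above the median of 456 on acetone replicate 1. That miR-183 was above background with acetone alone thus depends in part on unequal thresholds. All 8 of its spots passed the threshold on each acetone array, while 0 did so on shikonin replicate 1 and 2 on shikonin replicate 2. The margin was narrow for the dimmest spots with acetone, at 384 against a threshold of 376 on replicate 1 and 464 against 463.9 on replicate 2.

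miR-96 did not follow the other two. Its median raw spot was 520 and 648 on the shikonin arrays and 440 and 528 on the acetone arrays, and it was above background on all 4. It stood 188 and 224 units over the background level with shikonin, against 126 and 162 units with acetone. The raw values of the groups overlapped, since acetone replicate 2 lay above shikonin replicate 1, but those over background did not. Counted in MAD over background, miR-96 was at 4.53 and 5.40 with shikonin and at 6.07 and 4.97 with acetone, and on that scale the groups overlapped. Of its 8 spots, 1 was empty on every array.

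**Figure D1:**
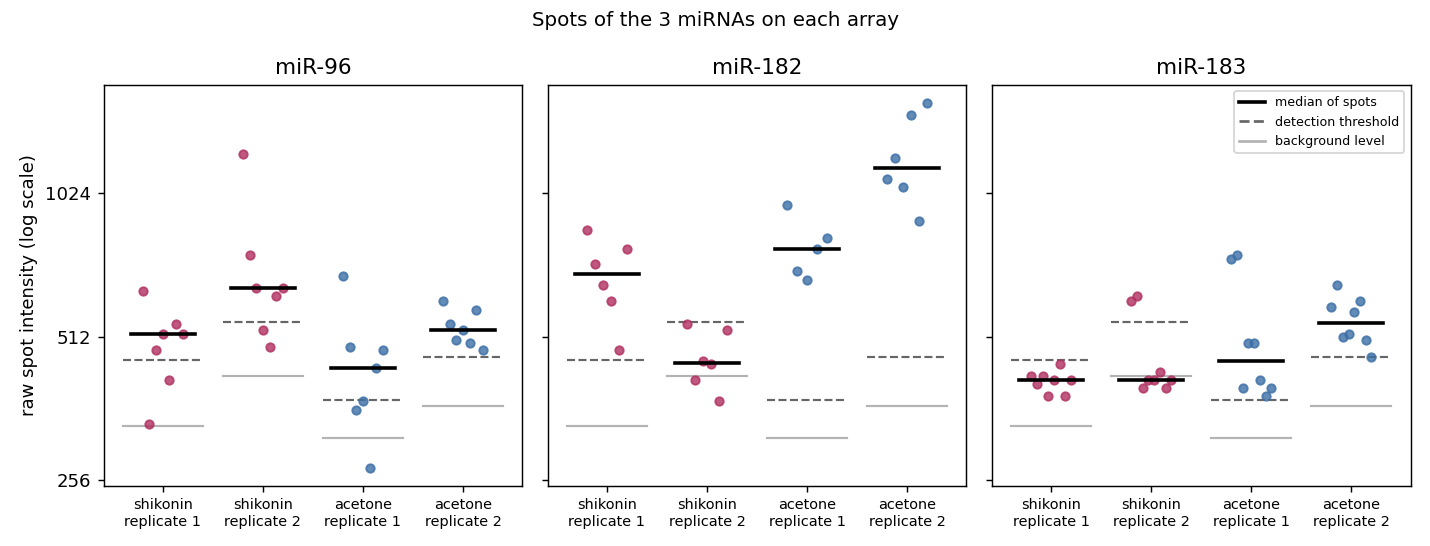
Raw intensity of each filled spot (log axis, arbitrary units) of miR-96, miR-182 and miR-183 on the 2 shikonin arrays and the 2 acetone arrays, with the median of the spots (black bar), the background level (grey line) and the detection threshold (dashed line). The spots of miR-182 clear the threshold on the acetone arrays (5 of 5 and 6 of 6) and fall under it on shikonin replicate 2, the median of miR-183 lies under the threshold on both shikonin arrays, and the median of miR-96 lies over the threshold on all 4 arrays.

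The 2 groups were compared to ask whether these miRNAs respond to shikonin within 24 hr. The spot medians were quantile normalized between arrays and log2 was taken, so values from here on are normalized log2 intensities, and differences are log2 fold changes of shikonin over acetone. The test was limma over all 710 miRNAs, two-sided, with Benjamini-Hochberg adjustment and a threshold of 0.05. None of the 3 miRNAs was called. The background of such calls was 0.282% of the miRNAs tested, 2 of 710. At an unadjusted limma p under 0.05, 125 of 710 miRNAs stood, 11% of those tested as lower and 6.62% as higher, and none of the 3 was among them.

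miR-182 was at 9.58 and 8.58 on the shikonin arrays and at 9.83 and 9.87 on the acetone arrays. Both shikonin arrays lay below both acetone arrays, and the shikonin arrays lay farther from each other than their mean lay from acetone. The means were 9.08 ± 0.70 in shikonin-treated and 9.85 ± 0.03 in acetone-treated skin (SD, n = 2 each). The log2 fold change was -0.77 (SE 0.36), a level 1.71-fold lower with shikonin, with a limma adjusted p of 0.415 (unadjusted p = 0.10). Since 1 of the 2 shikonin arrays detected miR-182 above background, part of this value rests on a level that is only a bound. Without shikonin replicate 2 the log2 fold change was -0.30. Without shikonin replicate 1 it was -1.30 as measured. With the detection threshold in place of the undetected level on replicate 2, miR-182 was at least 2.01-fold lower there than with acetone. That bound holds for replicate 2 alone and is not a minimum for the 2 shikonin arrays together, whose measured difference was 1.71-fold. Shikonin replicate 2, the array on which miR-182 was not above background, thus set most of the size of the measured difference between the groups.

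miR-183 was at 8.80 and 8.48 on the shikonin arrays and at 9.08 and 8.99 on the acetone arrays, again without overlap. The means were 8.64 ± 0.23 in shikonin-treated and 9.03 ± 0.07 in acetone-treated skin (SD, n = 2 each). This gave a log2 fold change of -0.40 (SE 0.14) and a limma adjusted p of 0.277 (unadjusted p = 0.050). Since neither shikonin array detected miR-183 above background, the level there is only a bound. With the detection threshold in its place, miR-183 was at least 1.09-fold lower with shikonin, on means of 8.91 for the bound and 9.03 for acetone. Without shikonin replicate 2 the measured log2 fold change was -0.25, and the bound was then at least 1.07-fold lower.

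miR-96 was at 9.15 and 9.22 on the shikonin arrays and at 9.0 and 8.96 on the acetone arrays, with the shikonin arrays above both acetone arrays. The means were 9.18 ± 0.05 in shikonin-treated and 8.98 ± 0.03 in acetone-treated skin (SD, n = 2 each). The log2 fold change was 0.20 (SE 0.08), a level 1.15-fold higher with shikonin, and its limma adjusted p was 0.351 (unadjusted p = 0.0741). An exact permutation test of each of the 3 miRNAs gave a two-sided p of 0.333, the smallest it can give with 2 arrays against 2.

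Counted by overlap, 2 of the 3 miRNAs were lower and 1 was higher without overlap between the groups. Over the whole chip 26.8% of the miRNAs were lower in this way and 22.4% higher, 190 and 159 of 710. The median log2 fold change was -0.40 over the 3 as measured, which is the value of miR-183, and -0.13 with miR-183 at its bound, against -0.01 over all 710 and 0.01 over the 160 miRNAs detected on all 4 arrays, whose quartiles were -0.79 and 0.61. The fold changes of all 3 lay between those quartiles.

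**Figure D2:**
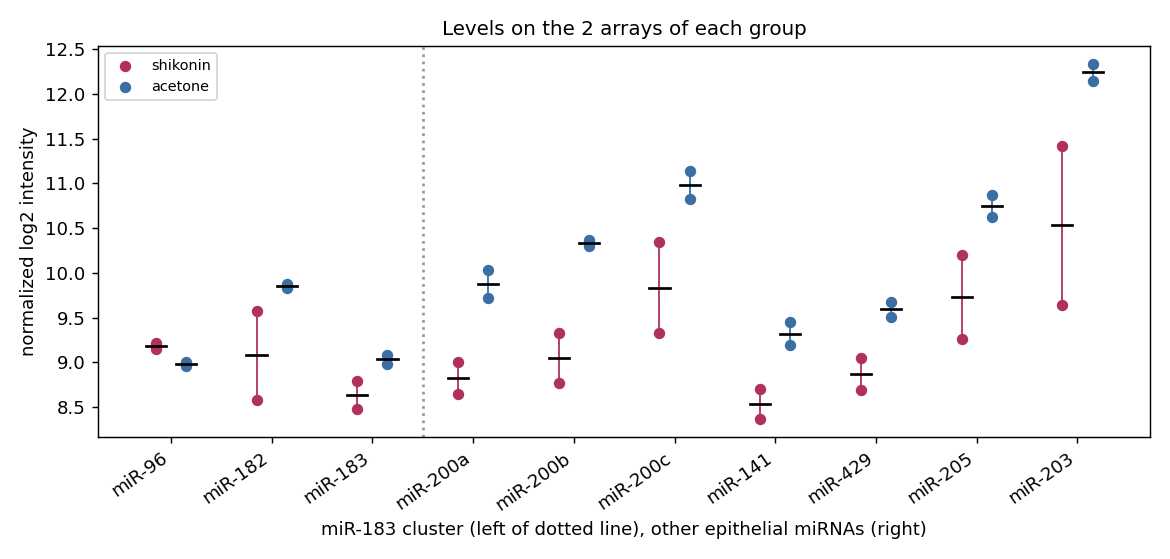
Normalized log2 intensity on each of the 2 shikonin arrays (left, red) and the 2 acetone arrays (right, blue) for miR-96, miR-182 and miR-183 and for the 7 other epithelial miRNAs, with the mean of each group (black bar). miR-182 and miR-183 lie lower with shikonin, as do the 7 others, while miR-96 lies slightly higher, at 9.18 against 8.98.

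The 3 miRNAs were also set against each other on the same array, because a ratio within an array does not depend on a scale factor between arrays. Where the divisor was not above background, it was set to the detection threshold and the ratio is a lower bound. The raw median of miR-96 was at least 1.14 and at least 1.18 times that of miR-183 on the shikonin arrays, and 0.965 and 0.964 times on the acetone arrays. The ratio of miR-96 to miR-182 was 0.751 and at least 1.18 on the shikonin arrays, and 0.561 and 0.457 on the acetone arrays. Both ratios were higher on the shikonin arrays without overlap, with no background subtracted. The ratio of miR-182 to miR-183 was at least 1.52 on shikonin replicate 1 and is not given for replicate 2, where neither was above background, against 1.72 and 2.11 on the acetone arrays, so that no order of the groups follows for it. These are ratios of 2 probes each, they say nothing of the amounts of the miRNAs relative to each other, and with 2 arrays a group no exact test of them can go below p = 0.333. Over the 4 arrays, after each miRNA's own mean was subtracted, the root mean square difference was 0.31 between miR-182 and miR-183 and 0.33 between miR-96 and miR-183, and 0.61 between miR-96 and miR-182.

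Each row of the spot table was compared across the arrays after division by the median spot of the array. For miR-182, 5 of the 5 rows filled on all arrays had both shikonin values below both acetone values, with a median difference of -0.91 (range -1.22 to -0.76, log2). For miR-183, this held for 7 of 8 rows, with a median of -0.43 (range -0.65 to -0.21). For miR-96, 0 of 7 rows were lower and 1 was higher in this sense, with a median of 0.11 (range -0.19 to 0.30), so that its groups overlapped in most rows although its normalized medians did not. Spots of one array share the same RNA sample and are not replicates, so no test was made on them. No share of such rows over the whole chip stands beside these counts, so they cannot be read against the other miRNAs.

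Spot intensity also changed along the spot table, which was divided into 10 equal blocks of rows. On shikonin replicate 2 the spots of block 1 lay 0.86 (log2) above the median of their own miRNA, against 0.14 on shikonin replicate 1 and 0.30 and 0.01 on the acetone arrays. miR-183 had 2 of its 8 spots there, and they were at 608 and 624 on shikonin replicate 2 and at 744 and 760 on acetone replicate 1, the highest of that miRNA on each array. miR-96 and miR-182 had none there, but the spot of miR-96 in block 2 was its highest on shikonin replicate 2, at 1240. Without the spots of block 1 the log2 fold changes were 0.20 for miR-96, -0.74 for miR-182 and -0.27 for miR-183. The groups still did not overlap for any of the 3.

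**Figure D3:**
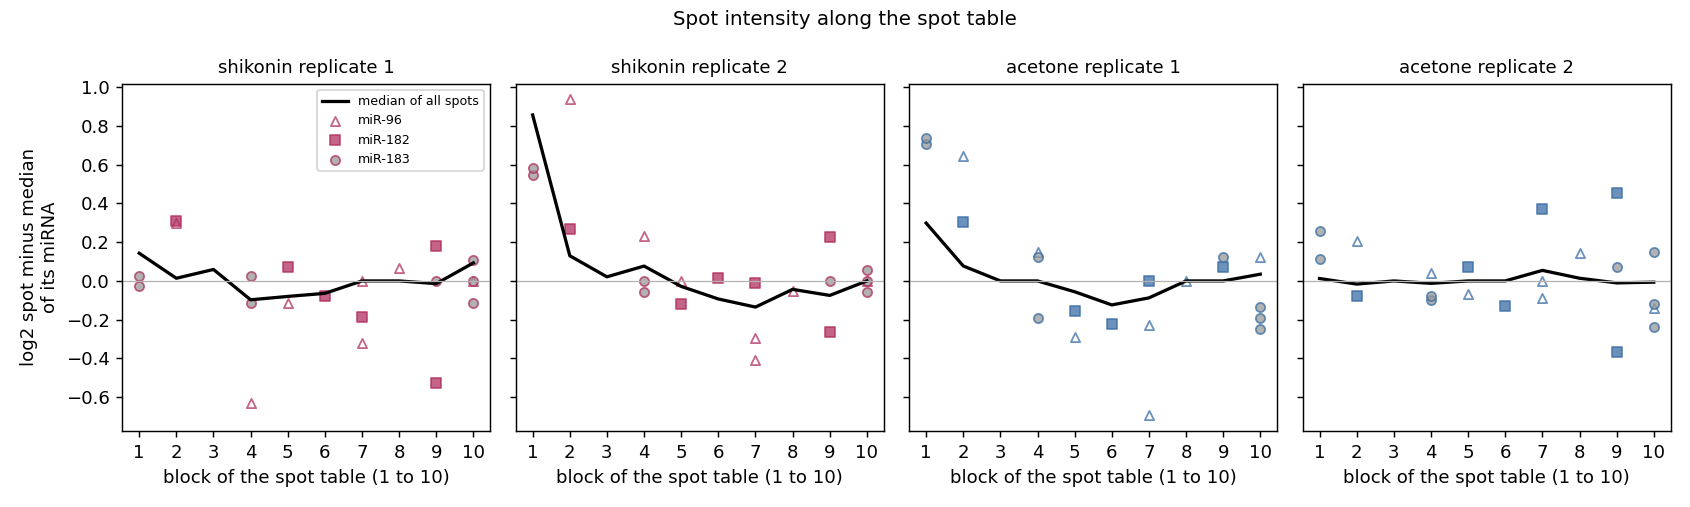
Log2 of each spot minus the median of its miRNA on that array, by block of the spot table (10 blocks of equal size), for miR-96 (triangles), miR-182 (squares) and miR-183 (circles) on the 2 shikonin and 2 acetone arrays, with the median over all spots of the chip (line). The line reaches 0.86 in block 1 of shikonin replicate 2, where miR-183 has 2 spots and miR-96 and miR-182 have none.

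Only miR-183* of the passenger strands of this cluster was among the deposited rows. Its median raw spot was 316 and 356 on the shikonin arrays and 280 and 372 on the acetone arrays, above background on none of the 4, so no fold change is given for it.

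Other miRNAs of epithelium were taken from a list of 7. miR-141, miR-429 and miR-200a, miR-200b and miR-200c form the miR-200 family, which together with miR-205 represses the transcription factors Zeb1 and Zeb2, and miR-203 drives keratinocyte differentiation. All 7 were lower on both shikonin arrays, with log2 fold changes between -1.71 and -0.72 and a median of -1.05, and 0 of 7 passed the limma test after adjustment. miR-141 was above background on neither shikonin array, so its level there is only a bound, and it was at least 1.33-fold lower with shikonin. With miR-141 at that bound the values ran from -1.71 to -0.41, and the median was still -1.05. At an unadjusted limma p under 0.05, 6 of the 7 were lower, against 0 of the 3 miRNAs of the cluster and 11% of all 710. miR-182 and miR-183 shared the direction of the 7, at -0.77 and -0.40, and miR-96 did not, at 0.20. The difference between the 2 groups of miRNAs was not tested. The 7 were on average at 9.72 and 8.96 on the shikonin arrays and at 10.5 and 10.3 on the acetone arrays, so that shikonin replicate 2 was the lowest array for this list as it was for miR-182.

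Likeness was sought only among miRNAs outside the cluster that were detected on all 4 arrays, as miR-96 was and miR-182 and miR-183 were not. MiRNAs undetected on a shikonin array were left out, so closer ones to miR-182 and miR-183 may have been missed. The measure was the root mean square difference after each miRNA's own mean was subtracted. Within that set, the miRNAs whose 4 normalized values ran closest to each of the 3 were named. For miR-182 these were miR-125b-5p (0.14), miR-205 (0.16) and miR-1937b (0.17), with log2 fold changes of -0.88, -1.02 and -0.68. For miR-183 they were miR-210 (0.07), miR-151-5p (0.08) and miR-2132 (0.09), with log2 fold changes of -0.40, -0.56 and -0.53. For miR-96 they were miR-1186 (0.06), miR-139-5p (0.07) and miR-1894-3p (0.09), with log2 fold changes of 0.19, 0.12 and 0.05. None of the 9 passed the limma test, and likeness over 4 arrays is a description only.

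Markers of other cells of the skin were counted by overlap too, beside 26.8% lower and 22.4% higher over the whole chip. Their mean normalized level was 10.4 and 10.5 on the shikonin arrays and 11.3 and 11 on the acetone arrays for 6 miRNAs of fibroblasts and mesenchyme, of which 5 were lower and 1 higher without overlap. It was 9.55 and 9.89 with shikonin and 11.1 and 10.2 with acetone for 4 miRNAs of striated muscle, all lower. For 6 leukocyte miRNAs it was 9.21 and 9.37 with shikonin and 9.25 and 9.40 with acetone, with 1 lower and 1 higher. For 2 endothelial strands it was 9.46 and 9.45 with shikonin and 10.2 and 9.87 with acetone, with 1 lower and 1 higher. Above background on no array were 2 of the 6 leukocyte and 1 of the 2 endothelial miRNAs, and 0 of the others. At 1 of 6 in each direction, the leukocyte list did not exceed the shares of the whole chip. No list had a member past the adjusted limma test. In bulk skin, fewer cells of a type and less RNA per cell cannot be told apart, and the part of these shifts in the values of miR-182 and miR-183 was not tested.

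The direction of the 3 fold changes was followed through 18 other ways of processing. In 3 of these (the floor, the intensity trend and the replicate block) the fold changes equalled those reported, so that these 3 say nothing further of the direction and 15 remain. That of miR-182 stayed below 0 in all 18, between -1.30 and -0.16, and that of miR-96 stayed above 0 in all 18, between 0.11 and 0.87. That of miR-183 stayed below 0 in 17 and reached 0.34 when the arrays were scaled over bright miRNAs, a setting that moved the median of all miRNAs to 0.74. Relative to that median, miR-183 was at -0.41, miR-182 at -0.91 and miR-96 at 0.13. Scaling an array moves all its miRNAs alike, so these values are the same with no normalization or with scaling over all miRNAs. They therefore cannot decide whether miR-183 was lower. Of the 710 miRNAs behind the median, 411 were above background on no array. With background corrected by normexp, which matters most for dim miRNAs, the log2 fold changes were -1.16 for miR-182, -0.72 for miR-183 and 0.31 for miR-96, and none was called by limma. The values of miR-183 are measured ones, with shikonin levels not above background. A constant sign did not always mean separate groups. With scaling over bright miRNAs, miR-182 was at 9.76 and 9.20 with shikonin and 9.67 and 9.62 with acetone, an overlap. There miR-183 was higher without overlap, at 9.03 and 9.08 with shikonin against 8.89 and 8.54 with acetone. With no normalization the groups of miR-96 overlapped.

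The value table that the authors deposited for the same arrays gave a different view of shikonin replicate 1. There miR-182 had log2 values of 12.0 and 5.93 on the shikonin arrays and 8.85 and 9.68 on the acetone arrays, so that shikonin replicate 1 was above both acetone arrays and shikonin replicate 2 below both. miR-183 behaved in the same way, at 9.12 and 4.90 on the shikonin arrays and 7.72 and 7.64 on the acetone arrays. miR-96 was at 8.08 and 8.05 on the shikonin arrays and at 7.58 and 7.49 on the acetone arrays, and the groups did not overlap, as in the normalized spot medians. The ranks of that table equalled those of the raw spot medians for replicate 2 of both groups (Spearman 1) but not for replicate 1 (0.921 for shikonin and 0.914 for acetone), and the sources used here do not say how the values of replicate 1 were made.

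**Figure D4:**
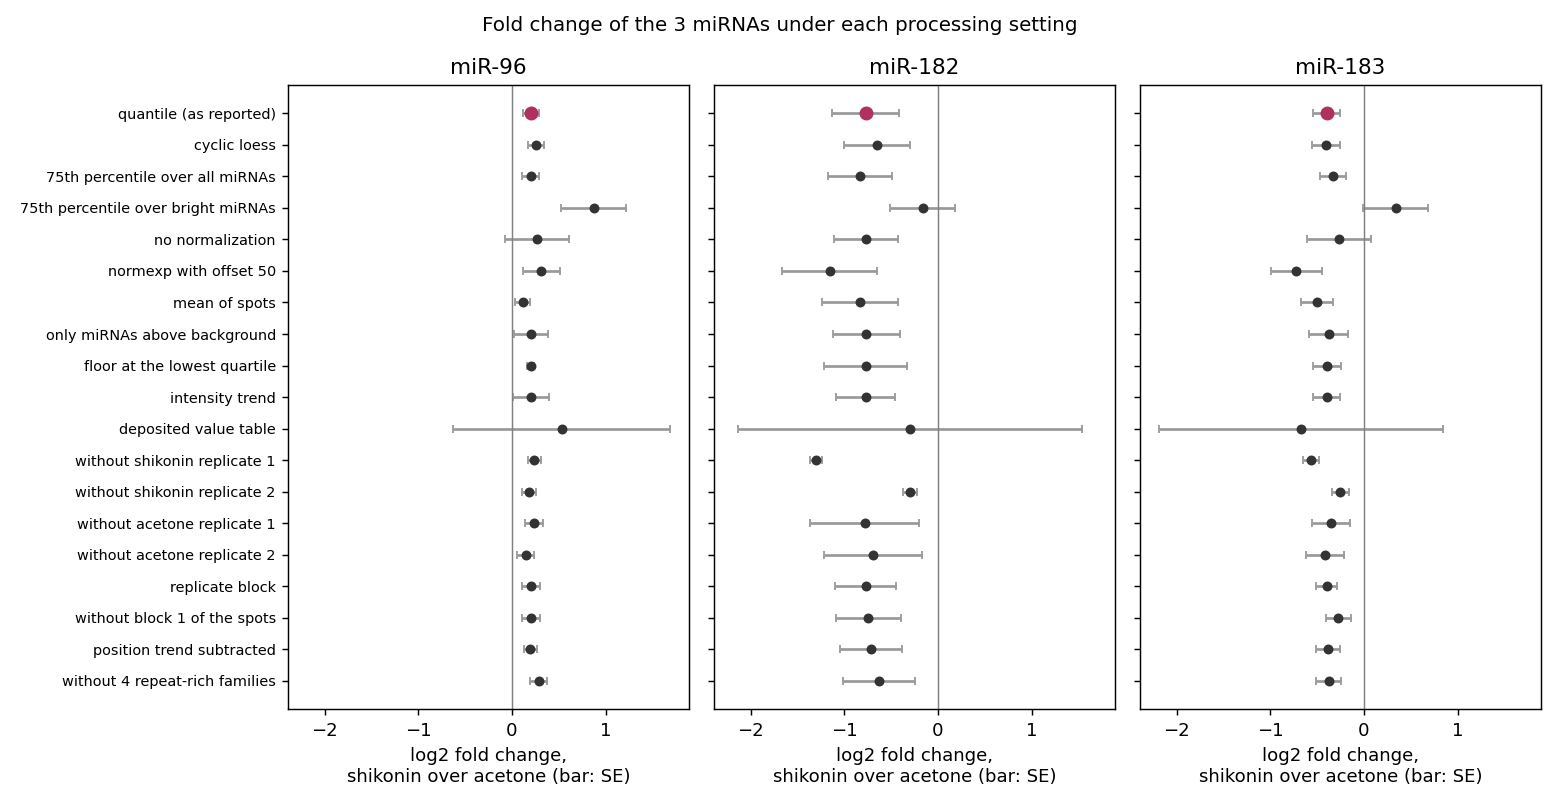
Log2 fold change of shikonin over acetone with its SE for miR-96, miR-182 and miR-183 under quantile normalization as reported (red) and under 18 other settings. miR-96 lies above 0 and miR-182 below 0 throughout, while miR-183 lies at 0.34 with scaling over bright miRNAs and below 0 elsewhere.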

How the data were processed

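Total RNA of mouse abdominal skin was hybridized by the authors to a Geniom biochip with probes for 710 mature miRNAs. The deposited spot table holds linear intensities, 8 spots per miRNA, with no background columns and with empty spots. The deposited value table holds processed log2 values, 1 for each miRNA on each array. Quantile normalization is named for it in the methods, yet its columns have medians of 6.43 and 6.11 (shikonin) and 6.05 and 5.75 (acetone), and its scale and centring stay unknown for replicate 1, so it served as an alternative. Groups and replicate numbers came from the sample titles.

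Medians of the filled spots were quantile normalized on the linear scale, set to at least 1 and log2 transformed, with no filter. Background was not subtracted, which understates changes of dim miRNAs. Normexp with an offset of 50 was the alternative. limma 3.58.1 (R 4.3.3) was fitted with lmFit and eBayes on all miRNAs, and the code was tested on simulated data. Fits, list means and fold changes used measured values. Where both arrays of 1 group failed to detect a member or an epithelial miRNA, a bound was added, with the higher of the measured value and the threshold on each such array. The fold bounds hold for quantile-normalized values only and do not cover the spread between arrays. Named were the 3 members, passenger strands on the chip, the 3 closest miRNAs of each member among 159 candidates, and a list of 7 epithelial miRNAs. Members, lists and tests were chosen with earlier results of these data known. The position of spots, the repeat-rich families and the crossed pairing were added as alternatives after the values had been seen. The precision is limited by the number of arrays.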

Additional observations from a re-analysis of the deposited data

How the results depend on the processing

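limma called 2 miRNAs higher and 0 lower on the shikonin arrays (125 at an unadjusted p under 0.05), and 0 of the 3 miRNAs lower under any of the settings run. Calls were 0 higher and 0 lower with cyclic loess, with the mean of spots, in the deposited value table, without block 1 of the spots, and without any 1 array (range 0 to 0, with 63 to 101 at an unadjusted p under 0.05). They were 0 higher and 2 lower with the 75th percentile over all miRNAs, 184 and 22 with that over bright miRNAs, 30 and 53 with no normalization, 3 and 1 with the floor, and 24 and 14 with an intensity trend. With the replicate block there were 0 higher and 0 lower, and miR-182 was at -0.77, which a block cannot change in this balanced design. The samples share only a number (deviations of same-numbered arrays from their group means correlated at -0.28), and crossing it gave 19 higher and 16 lower. miR-183 reversed to 0.34 and miR-96 passed at 0.87 (limma adjusted p = 0.0485) with scaling over bright miRNAs. That setting moved the median of all miRNAs to 0.74. Leaving out 1 array moved miR-96 between 0.15 and 0.24, miR-182 between -1.30 and -0.30 and miR-183 between -0.57 and -0.25. Over the 18 alternatives the adjusted p ran from 0.0485 to 0.981 for miR-96, 0.130 to 0.981 for miR-182 and 0.0864 to 0.981 for miR-183. The signal of miR-183 over background limits its fold change.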
